A study of Mus musculus with 50 samples.

Results

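The endothelial genes examined here are 10 genes that are widely used to mark the cells lining blood vessels: Pecam1, Cdh5, Kdr, Flt1, Tek, Tie1, Vwf, Eng, Cldn5 and Cd34. They were chosen by symbol, and all 10 were found among the 37469 gene identifiers of the count table and among the 19327 genes that passed the filter on low counts. RNA was sequenced from whole p53/MCA sarcomas of the mouse hind limb, 32 primary and 16 transplant tumors. The question was how vessel genes compared between the tumor models and after treatment.

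All mice were of the 129/SvJae strain. Primary sarcomas arose in the gastrocnemius muscle of p53FL/FL mice, aged 6 to 10 weeks, after a local injection of Adeno-Cre, an adenovirus that deletes the floxed Trp53 alleles in the cells it enters, and of 300 µg of the carcinogen MCA. Transplant sarcomas grew after 50000 cells of line 402230 were injected into the same muscle of syngeneic mice, so every transplant came from 1 cell line, and the vessels of a transplant come from a host whose age the labels do not state separately. At a volume of about 150 mm3 each mouse received 200 µg of muDX400 (murine anti-PD-1, which blocks a checkpoint receptor of T cells) or an isotype control antibody, followed by 0 or 20 Gy to the limb, and tumors were harvested 3 days later. The 4 treatments (0 Gy with isotype, 0 Gy with anti-PD-1, 20 Gy with isotype and 20 Gy with anti-PD-1) had 8 primary and 4 transplant tumors each. Per the labels the field of radiation took in the entire hind limb that bore the tumor.

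Blood vessels grow and are kept stable by ligands that other cells release and receptors that endothelial cells carry. VEGF acts through Kdr (VEGFR2), the main signalling receptor, while Flt1 (VEGFR1) binds VEGF strongly and holds it back. Angiopoietins act through Tek (Tie2), which works together with the related receptor Tie1, and Eng (endoglin) is a co-receptor for ligands of the TGF-beta and BMP family. Pecam1 (CD31) and Cdh5 (VE-cadherin) hold neighbouring endothelial cells together, Cldn5 seals their tight junctions, and Vwf is the clotting factor that endothelial cells store and release. Cd34 is a surface sialomucin of capillary endothelium that is also carried by blood-forming progenitors and by some fibroblast-like cells.

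The stretch just before the start of transcription was available from RefSeq (build GRCm38.p6) for 7 of the 10 genes, and is shown for the 2 genes that radiation changed (Kdr and Cd34) and for Cldn5. Capitals mark GGAA or its reverse complement TTCC, the core of the site bound by ETS factors, a family that many endothelial genes use. Each sequence reads 5′ to 3′ on the strand of the gene and ends at the base before the first annotated exon. The Kdr window lay at chr5:75978459-75978705 on the minus strand, the Cd34 window at chr1:194938571-194938818 on the plus strand and the Cldn5 window at chr16:18776597-18776846 on the plus strand.
Kdr: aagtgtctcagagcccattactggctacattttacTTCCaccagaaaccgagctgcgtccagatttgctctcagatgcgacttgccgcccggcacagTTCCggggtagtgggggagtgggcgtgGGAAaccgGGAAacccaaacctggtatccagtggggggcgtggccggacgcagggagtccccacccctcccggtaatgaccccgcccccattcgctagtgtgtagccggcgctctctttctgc
Cd34: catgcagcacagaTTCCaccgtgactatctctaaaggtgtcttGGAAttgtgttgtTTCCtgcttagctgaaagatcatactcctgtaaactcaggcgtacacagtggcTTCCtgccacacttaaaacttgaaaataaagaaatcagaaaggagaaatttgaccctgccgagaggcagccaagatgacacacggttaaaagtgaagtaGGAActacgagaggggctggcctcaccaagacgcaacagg
Cldn5: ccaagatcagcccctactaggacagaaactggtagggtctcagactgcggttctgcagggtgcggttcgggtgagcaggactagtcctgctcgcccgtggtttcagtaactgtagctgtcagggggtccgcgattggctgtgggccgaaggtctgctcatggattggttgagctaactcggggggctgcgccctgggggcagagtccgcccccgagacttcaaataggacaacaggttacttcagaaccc
Searched on both strands, the Cd34 window held 5 matches, the Kdr window 4 and the Cldn5 window 0. The letters are common: 93.4% of 32851 RefSeq promoters held at least 1 match in the 250 bases before the start, with a mean of 2.91. GATAA, the core of the GATA site, was searched in the same way and had 0 matches in the Kdr, Cd34 and Cldn5 windows, against 22.6% of promoters with a match. A match is a description of the letters and says nothing of binding in these tumors.

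Total counts ran from 31810461 to 54008259 per tumor, so that 1 CPM (counts scaled to a common library size) stood for at least 31.8 counts in terms of library totals. The spread between tumors was part of every test below. In whole tumors, fewer endothelial cells, less RNA per endothelial cell and a change in other cells that carry a gene cannot be told apart. The labels name each library as its own tumor and do not say whether tumors shared a litter or a day. There were 2 further libraries, labelled as the parental primary tumor of line 402230 (0 Gy, isotype) and as the cell line itself. The first was below all 48 tumors in 9 of the 10 genes, far below in most of them, but not in Cd34. The second had levels like a tumor. Both patterns go against the labels. Neither library entered a comparison, and their values are given at the end.

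Cd34 had the highest level of the 10 genes and Vwf and Tek were among the lowest. Per kilobase of exon, over the 48 tumors, Cd34 had a median level of 44.2 CPM per kb. Eng (26.0 CPM per kb), Cdh5 (24.9 CPM per kb), Cldn5 (18.3 CPM per kb) and Pecam1 (16.4 CPM per kb) followed. The receptors were lower, with medians of 7.84 CPM per kb for Tie1, 4.62 for Kdr, 2.61 for Flt1 and 2.54 for Tek, and Vwf was lowest at 1.26 CPM per kb. Exons of Eng overlap those of Fpgs on the other strand and Cd34 overlaps the non-coding gene Gm16897 in the same way. The strand setting of the counting is not given in the sources used here, so some reads of those genes may be counted with their partners.

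**Figure D1:**
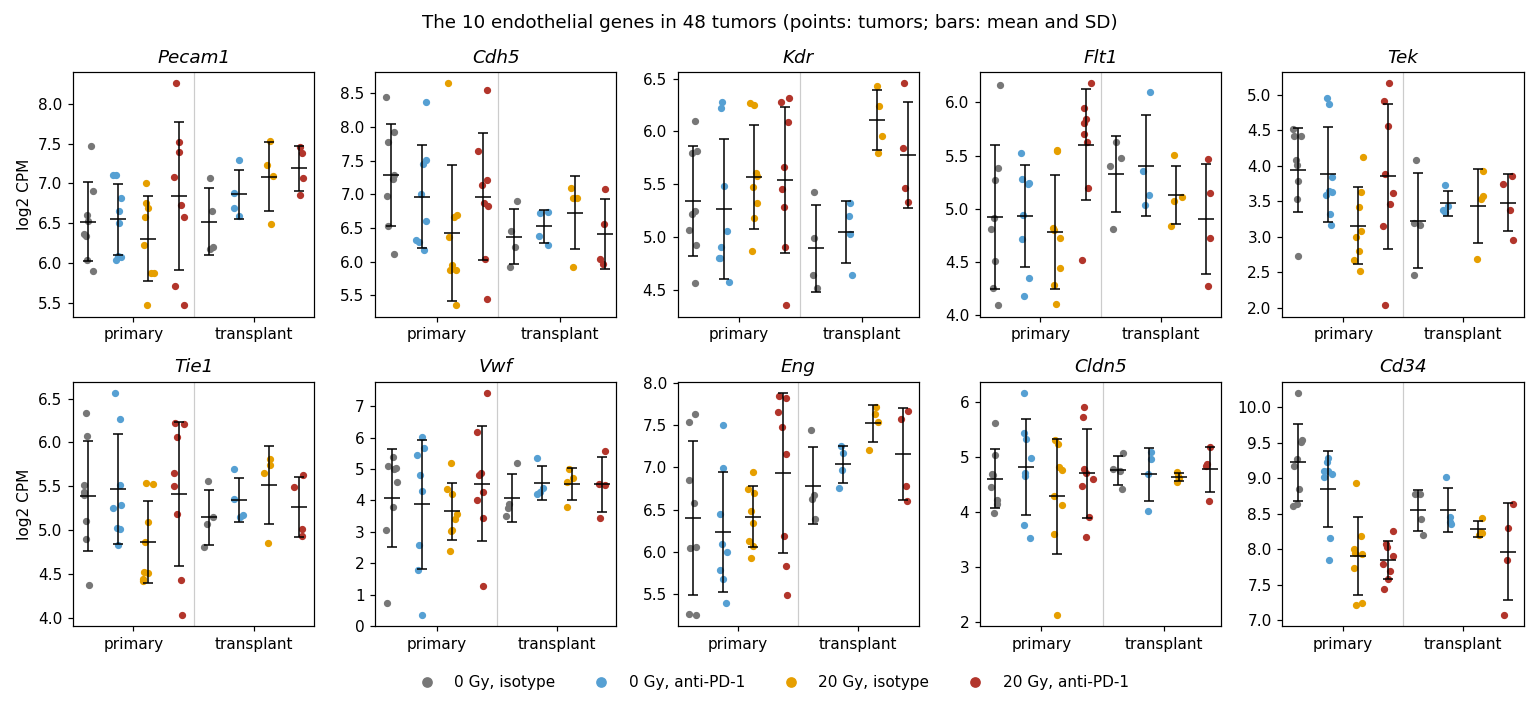
Levels of the 10 genes in log2 CPM (y axis, its own range for each gene) in primary and transplant tumors (x axis), with 1 point per tumor, coloured by treatment, and bars for the mean and SD of each group. Cd34 is lower in the irradiated primary groups and Kdr higher in the irradiated transplants, while most other groups overlap.

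For most of the genes the 8 groups overlapped widely. The 8 group means of each gene were also put in order. Neighbours in that order differed by more than the larger of their SDs in 0 of 70 pairs over the 10 genes. Gaps between 8 ordered means tend to be small, and the same held for Cd34 and Kdr. The count therefore does not measure overlap. The distance from the lowest to the highest group mean was greatest for Cd34, at 1.37 on the log2 scale (untreated primary tumors highest, primary tumors given the combination lowest). It was 1.29 for Eng and 1.21 for Kdr, and least for Cldn5, at 0.54.

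Vessel genes varied more between primary tumors than between transplants. Vwf varied most: it ran from 1.22 CPM in a primary tumor given anti-PD-1 alone to 173 CPM in a primary tumor given the combination of radiation and anti-PD-1, a 141.8-fold range, whereas in transplants it ran from 10.9 to 47.6 CPM. Its SD within groups, on the log2 CPM scale, was 1.65 in primary tumors and 0.69 in transplants. Cldn5 had an SD of 0.83 in primary tumors and 0.35 in transplants, and Cdh5 of 0.88 and 0.44. Cd34 differed least between the models, with SDs of 0.49 and 0.40. The SD was larger in primary tumors for 10 of the 10 genes, as it was for 82.5% of the 11740 genes with a mean log2 CPM of at least 2, whose median SDs were 0.37 and 0.29. No test of the spread was run.

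Between transplant and primary tumors few of the 10 genes were called. Averaged over the 4 treatments, 1 gene was higher in transplants (Eng) and 1 lower (Cdh5), or 2 of 10, where 34.8% of the 19327 genes tested were called (edgeR, adjusted p under 0.05). The median log2 fold change of the 10 genes was -0.06, beside a median of -0.0025 over the genes tested.

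Eng, the endoglin co-receptor, was measured at 99.04, 102.2, 173 and 83.9 CPM in the untreated transplants. It was at 108.2, 153, 143.7 and 124.8 CPM in transplants given anti-PD-1 alone, at 148, 186, 198 and 209.7 CPM after 20 Gy alone, and at 190.4, 97.3, 110.3 and 204 CPM after the combination. In primary tumors the lowest, median and highest values were 38.1, 80.9 and 198 CPM without treatment, 42.0, 66.1 and 181 CPM with anti-PD-1 alone, 61.1, 85.2 and 123.3 CPM after 20 Gy alone, and 45.0, 160.6 and 229 CPM after the combination. The 2 models overlapped, but the lowest transplant (83.9 CPM) lay close to the median primary tumor (84.2 CPM). The log2 fold change was 0.49 ± 0.20 (SE, 95% interval 0.11 to 0.88, adjusted p = 0.0441 by edgeR).

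Cdh5, the VE-cadherin gene, was at 74.2, 87.2, 119.2 and 60.7 CPM in untreated transplants, at 76.0, 83.3, 106.7 and 105.9 CPM with anti-PD-1 alone, at 60.4, 122.6, 123.8 and 136.1 CPM after 20 Gy alone and at 94.5, 65.8, 62.3 and 134.9 CPM after the combination. In primary tumors the lowest, median and highest were 69.03, 153 and 349.9 CPM without treatment, 71.8, 112.9 and 329 CPM with anti-PD-1 alone, 40.7, 72.0 and 402 CPM after 20 Gy alone and 43.5, 129 and 375 CPM after the combination. No transplant reached the highest value of any primary group. After 20 Gy alone the mean log2 CPM was higher in transplants (6.72) than in primary tumors (6.43), and in each other treatment it was lower. The log2 fold change was -0.61 ± 0.25 (SE, 95% interval -1.09 to -0.13, adjusted p = 0.0491 by edgeR).

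Neither call was stable. Over 22 alternative fits, Eng passed the threshold in 9 (adjusted p from 0.0138 to 0.101) and Cdh5 in 5 (0.0264 to 0.171), although the direction stayed the same in all of them. Leaving out 1 transplant was enough. Without replicate 3 of the untreated transplants the adjusted p of Eng was 0.101 by edgeR. Without replicate 1 of the transplants given 20 Gy alone that of Cdh5 was 0.0907. No primary tumor was left out in turn. With the mean level of the skeletal muscle list as a covariate the adjusted p was 0.0775 for Eng and 0.0661 for Cdh5, and Tek, which no other fit called, passed the threshold (log2 fold change -0.55, adjusted p = 0.0161).

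The other 8 genes were not called between the models. Pecam1 had a log2 fold change of 0.28 (95% interval -0.05 to 0.60) and Tek of -0.40 (-0.79 to -0.01, adjusted p = 0.116). For Kdr the interval ran from -0.36 to 0.27, for Flt1 from -0.22 to 0.39, for Tie1 from -0.39 to 0.27 and for Cldn5 from -0.46 to 0.35. Vwf had the widest, from -0.87 to 0.61. Cd34 had a log2 fold change of -0.15 (-0.42 to 0.12). These intervals do not show that the models were alike. Within single treatments, 0 of 10 genes were called without treatment (background 10.3%), with anti-PD-1 alone (7.35%), after 20 Gy alone (4.87%) or after the combination (6.76%). The numbers of genes with an unadjusted p under 0.05 were 2, 0, 2 and 1, and DESeq2 and limma voom also called 0 in each. The gene with the smallest adjusted p among them was Cd34 without treatment, with a log2 fold change of -0.75 ± 0.29 (SE, adjusted p = 0.0867 by edgeR).

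**Figure D2:**
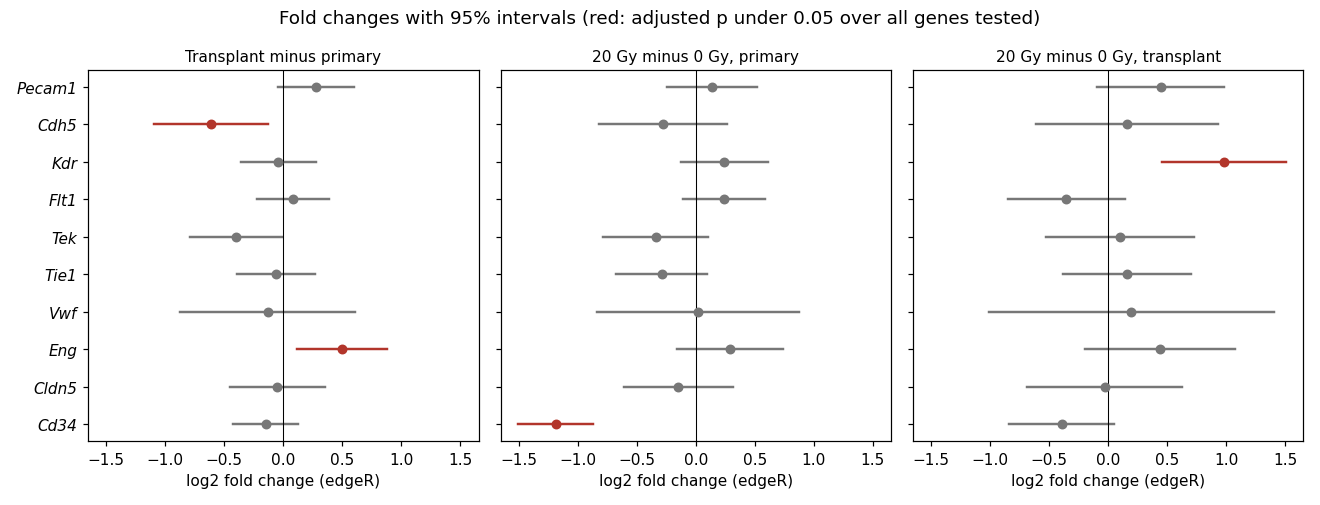
Log2 fold changes (x axis, edgeR) of the 10 genes (y axis) for transplant against primary tumors and for 20 Gy against 0 Gy in each model, averaged over the other factors, with bars for 95% intervals. Red marks an adjusted p under 0.05, which Eng and Cdh5 met between models, Cd34 after radiation of primary tumors (-1.19) and Kdr after radiation of transplants (0.98).

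Radiation lowered Cd34 in primary tumors. Cd34 had a lowest, median and highest level of 389, 599 and 1181 CPM in the untreated primary tumors and of 229.7, 542 and 624 CPM in those given anti-PD-1 alone. After 20 Gy the same values were 149, 246 and 491 CPM with isotype and 174, 231 and 307 CPM with anti-PD-1. All 16 irradiated tumors lay below the median of the 16 unirradiated ones (549.8 CPM), 7 of them below the lowest, and 11 of the unirradiated tumors lay above the highest irradiated one. The log2 fold change, averaged over antibodies, was -1.19 ± 0.16 (SE, adjusted p = 3.82e-07 by edgeR), and this was the only 1 of the 10 genes called, against 31.0% of all genes tested. It was -1.32 with isotype (adjusted p = 7.31e-05, background 18.3%), -1.05 with anti-PD-1 (adjusted p = 0.00218, background 11.2%) and -1.44 for the combination against no treatment (adjusted p = 3.32e-05, background 18.8%). The last shares its untreated controls with the isotype comparison and its irradiated tumors with the anti-PD-1 comparison. Each of these calls held under the 7 alternatives of scaling, filter, covariate, tool and groups. The other 16 alternative fits each left out 1 transplant, which is not among the tumors compared, and no primary tumor was left out in turn. In the library labelled parental tumor, described at the end, Cd34 was at 583 CPM while Pecam1 was at 0.114 CPM. Which cells carried the Cd34 RNA of the tumors was not tested.

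In transplants Cd34 was at 439, 441, 295 and 344 CPM without treatment and at 335, 352, 329 and 519.9 CPM with anti-PD-1 alone. After 20 Gy it was at 294, 303, 301 and 349 CPM with isotype and at 399.6, 134.7, 231.5 and 316 CPM with anti-PD-1. The doses overlapped, and 3 of 8 irradiated transplants lay below the lowest unirradiated one. The log2 fold change was -0.40 ± 0.23 (SE, 95% interval -0.84 to 0.05, adjusted p = 0.353 by edgeR). The difference of the radiation effect between the models was 0.79 ± 0.28 on the log2 scale (unadjusted p = 0.00681, adjusted p = 0.324), so a difference between the models was not established. Among all genes, 0.0259% were called for that difference.

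Radiation raised Kdr, the main VEGF receptor, in transplants. It was at 24.9, 31.7, 43.0 and 22.9 CPM in untreated transplants and at 25.0, 32.6, 40.0 and 36.7 CPM in those given anti-PD-1 alone. After 20 Gy it was at 55.4, 62.1, 75.6 and 86.0 CPM with isotype and at 57.2, 40.4, 44.25 and 87.9 CPM with anti-PD-1. Of the 8 irradiated transplants, 7 exceeded the highest unirradiated one, and the remaining 1 lay within the unirradiated range. The log2 fold change was 0.98 ± 0.27 (SE, adjusted p = 0.0146 by edgeR), the only 1 of the 10 genes called, against 7.23% of all genes tested. This call held in all 23 alternative fits, with adjusted p from 0.00284 to 0.0484. With isotype and with anti-PD-1 taken alone the log2 fold changes were 1.19 (adjusted p = 0.0983, background 1.92%) and 0.77 (adjusted p = 0.366, background 0.595%), so 0 of 10 genes were called in either by edgeR, DESeq2 or limma voom, with 1 gene at an unadjusted p under 0.05 in each.

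In primary tumors Kdr had a lowest, median and highest level of 23.6, 37.6 and 68.5 CPM without treatment and of 29.2, 46.0 and 77.0 CPM after 20 Gy alone. With anti-PD-1 the values were 23.8, 31.6 and 77.7 CPM at 0 Gy and 20.4, 47.2 and 79.5 CPM at 20 Gy. Of the 16 irradiated primary tumors, 13 lay above the unirradiated median, 2 above the highest unirradiated tumor and 1 below the lowest. The log2 fold change was 0.24 ± 0.19 (SE, 95% interval -0.12 to 0.61, adjusted p = 0.34 by edgeR). The difference between the models was 0.74 (unadjusted p = 0.028, adjusted p = 0.504).

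The remaining 8 genes were not called after radiation in either model. In primary tumors their averaged log2 fold changes ran from -0.34 (Tek) to 0.29 (Eng), and in transplants from -0.36 (Flt1) to 0.44 (Pecam1). Flt1, the VEGF trap, differed by 0.68 in primary tumors under anti-PD-1 (adjusted p = 0.0765 by edgeR) and by -0.20 under isotype. Its lowest, median and highest levels were 22.9, 53.9 and 72.6 CPM after the combination and 17.2, 27.2 and 46.8 CPM after 20 Gy alone. Tek, the Tie2 receptor, differed by -0.78 under isotype (adjusted p = 0.0832) and by 0.11 under anti-PD-1. For the combination against no treatment in transplants, 0 of 10 genes were called (background 4.41%), with 1 at an unadjusted p under 0.05 and 0 by DESeq2 or limma voom.

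Other tissue components moved with radiation, for which 31.0% of all genes tested were called in primary tumors and 7.23% in transplants. In primary tumors 8 of 9 skeletal muscle genes were higher after 20 Gy, and the summed level of the 9 ran from 66.3 to 7871 CPM at 0 Gy and from 13.98 to 84430 CPM at 20 Gy. With the mean level of the muscle list as a covariate the log2 fold change of Cd34 in primary tumors was -1.14 (adjusted p = 4.91e-07 by edgeR) and that of Kdr in transplants was 1.0005 (adjusted p = 0.0095). Leukocyte genes were higher in 4 of 6 cases in both models. Ptprc (CD45, carried by all leukocytes) had a median of 98.9 CPM at 0 Gy and 162 CPM at 20 Gy in primary tumors, and of 150.01 and 492 CPM in transplants. The 6 leukocyte genes summed to 443 to 1195 CPM in unirradiated and 1180 to 2139 CPM in irradiated transplants, the groups that also differed in Kdr. Of 6 fibroblast genes, 2 were lower after radiation of primary tumors, Pdgfra (-0.61, adjusted p = 0.0416) and Dpt (-0.96, adjusted p = 0.0324), and 0 after radiation of transplants. The summed level of the 6 ran from 3844 to 13713 CPM at 0 Gy and from 2378 to 24567 CPM at 20 Gy in primary tumors. The part of these lists in the results for Cd34 and Kdr was not tested. The muscle list itself changed with radiation of primary tumors, so its use as a covariate is no such test.

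Anti-PD-1 was not followed by a called change in any of the 10 genes. In primary tumors, averaged over doses, 0 of 10 were called (background 0.0155%) and 9 of 10 log2 fold changes were positive, with a median of 0.36 beside -0.0019 over all genes tested. The largest was 0.88 ± 0.44 for Vwf (SE, unadjusted p = 0.0499, adjusted p = 0.721 by edgeR), and Flt1 had 0.36 ± 0.18 (unadjusted p = 0.0482). Tek had 0.44, Tie1 0.37, Pecam1 0.36, Cldn5 0.35, Eng 0.23, Cdh5 0.05, Kdr 0.01 and Cd34 -0.26. Most of the genes tended to move together between tumors, as described below, so the 9 positive signs are not 9 separate observations. In transplants 0 of 10 were called (background 0%), 0 had an unadjusted p under 0.05, and the log2 fold changes lay between -0.09 (Cd34) and 0.26 (Vwf). DESeq2 and limma voom also called 0 in both models. No gene of the 19327 was called for a difference of the anti-PD-1 effect between models.

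Over the 48 tumors the genes tended to move together, with Cd34 apart. After the mean of its own group was subtracted from each log2 CPM value, Pearson's r over the 48 tumors was 0.88 between Pecam1 and Tie1, 0.82 between Tek and Tie1 and 0.82 between Kdr and Tie1. The 6 pairs among Tie1, Pecam1, Tek and Kdr lay between 0.67 and 0.88. Over the 36 pairs without Cd34 the median r was 0.58, and over the 9 pairs with Cd34 it was 0.13, with a range from -0.16 (Vwf) to 0.32 (Cldn5). These points share libraries, depth and scaling, and r is given as a description only. Tie1 followed the mean of the other 9 genes most closely (r of 0.94), and Cldn5 (0.40) and Cd34 (0.097) least.

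**Figure D3:**
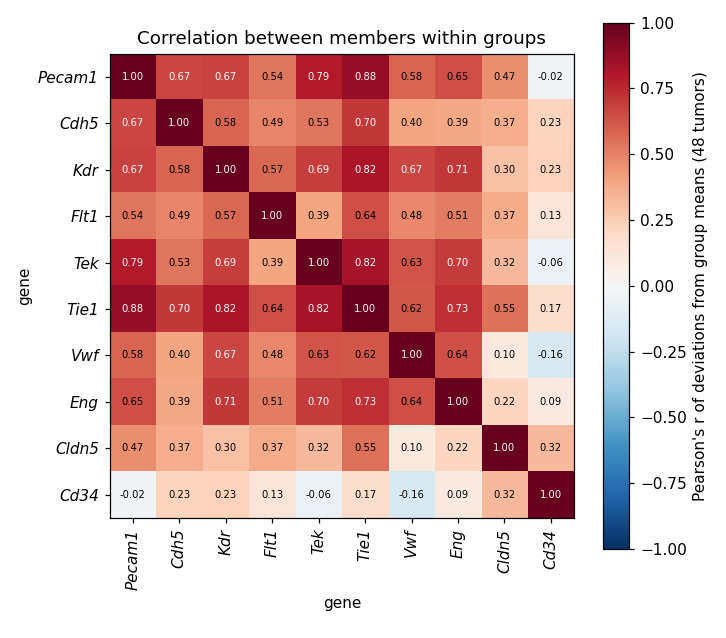
Pearson's r between each pair of the 10 genes (both axes) over the 48 tumors, after subtraction of group means from log2 CPM, with the value printed in each cell and red for positive r. Tie1, Pecam1, Tek and Kdr form a block of high values, and the row of Cd34 stays between -0.16 and 0.32 apart from itself.

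The r of some pairs was unlike between the models. That difference was not tested, and the pairs named were chosen after their values were seen. Cdh5 and Tie1 had an r of 0.96 in the 16 transplants and of 0.67 in the 32 primary tumors. The 4 tumors highest in Cdh5 were primary tumors, 3 of them with Tie1 levels near 46 CPM. One given 20 Gy alone (replicate 7) had 402 CPM of Cdh5 and 46.3 CPM of Tie1, with 5.22 CPM of Vwf. The others were a tumor given the combination (375 CPM of Cdh5 and 74.8 CPM of Tie1), an untreated tumor (349.9 and 45.6 CPM) and a tumor given anti-PD-1 alone (329 and 45.8 CPM). These tumors were chosen after their values were seen. The largest gap between Cdh5 and Tie1 on the log2 scale (3.54) was in another untreated primary tumor, replicate 4. Vwf and Cldn5 had an r of -0.72 in transplants and 0.16 in primary tumors, and Flt1 and Cd34 of 0.76 and -0.04. In transplants Cldn5 also had a negative r with Tie1 (-0.23), Pecam1 (-0.30), Cdh5 (-0.34), Tek (-0.42), Eng (-0.48) and Kdr (-0.48). Its r there was positive only with Flt1 (0.06) and Cd34 (0.24). The pairs with Cd34 had a median r of 0.33 in transplants and 0.04 in primary tumors.

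**Figure D4:**
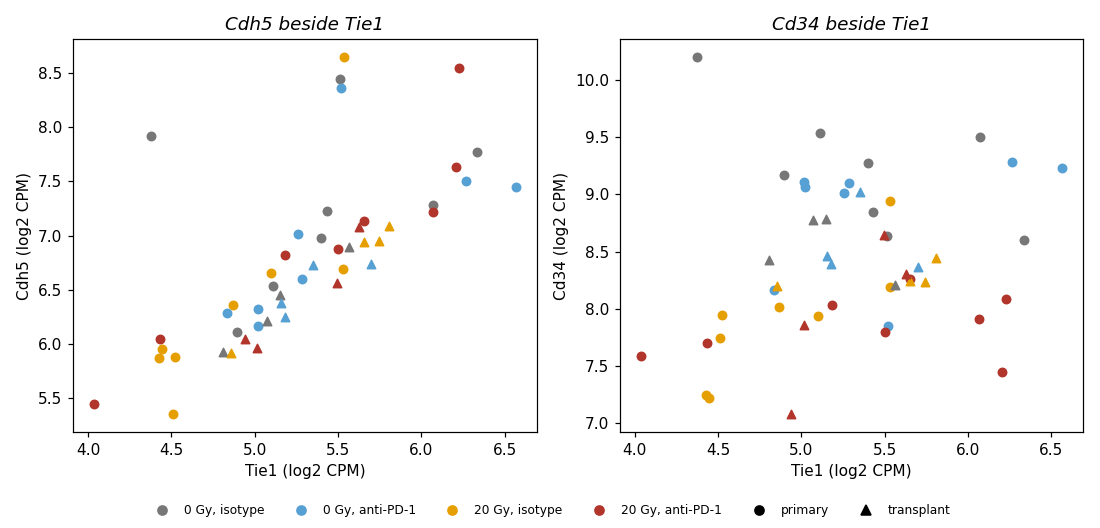
Cdh5 (left) and Cd34 (right) on the y axis against Tie1 on the x axis, all in log2 CPM, 1 point per tumor, with colours for treatment and shapes for model. Cdh5 rises with Tie1 apart from a few primary tumors above the line, and Cd34 shows no such relation.

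The genes most like the mean of the 10 included known endothelial genes. The 10 genes were averaged without scaling to a common SD, so Vwf, with the widest spread, weighed most in that mean. By r over the 48 tumors with that mean, both centred by group, the first 10 were Mmrn2 (0.91), Robo4 (0.91), Jag2 (0.91), Prex2 (0.90), Fgd5 (0.89), Adgrf5 (0.88), 4930578C19Rik (0.88), Adcy4 (0.87), Sema3g (0.87) and She (0.86). Robo4 is an endothelial guidance receptor, Mmrn2 a matrix protein of vessels and Jag2 a Notch ligand. The mean of a list of 20 further pan-endothelial genes had an r of 0.85 with the mean of the 10, the Notch and arterial list 0.86 and the junction list 0.75. Among lists of other cells it was 0.67 for mural cells, 0.58 for fibroblasts, 0.42 for skeletal muscle and 0.31 for leukocytes. It was -0.02 for platelets and -0.02 for red blood cells. For single genes, r with the leukocyte list ran from -0.13 (Cd34) to 0.54 (Pecam1).

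Of the 20 pan-endothelial genes, 2 were called between the models, beside 34.8% of all genes tested. Icam2, an adhesion molecule, was higher in transplants (log2 fold change 0.41) and Sox7, a transcription factor of vessels, lower (-0.62), and 18 were not called. After radiation of primary tumors Mmrn2 (0.74) and Egfl7 (0.53) were higher (background 31.0%), and after radiation of transplants 0 of 20 were called (background 7.23%). Emcn, the endomucin of veins and capillaries, was not called in either (0.16 and 0.13).

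Of 10 genes of the VEGF and angiopoietin list, 5 were lower in transplants and 1 higher, beside the 34.8% of all genes tested. Vegfc, the lymphatic growth factor, was lower by a log2 fold change of -1.43 ± 0.23 (SE, adjusted p = 4.67e-06 by edgeR), with medians of 9.69 CPM in transplants and 22.1 CPM in primary tumors. Vegfb (-0.43), Vegfd (-0.73), Angpt4 (-1.12) and the co-receptor Nrp2 (-0.71) were also lower. Angpt1, the ligand that activates Tek, was higher (0.96 ± 0.16, adjusted p = 1.18e-05), with medians of 32.4 and 14.1 CPM. After radiation of primary tumors Angpt1 rose by 0.94 (adjusted p = 0.000302 by edgeR), while Nrp1 (-0.43) and Vegfd (-0.63) fell. Of all genes tested, 31.0% were called after radiation of primary tumors and 7.23% after radiation of transplants. Vegfa, the main ligand of Kdr, was not called in transplants (-1.21 ± 0.39, adjusted p = 0.0519), where its median was 205 CPM at 0 Gy and 109.3 CPM at 20 Gy, nor was Angpt2, the ligand that opposes Angpt1 (0.66, adjusted p = 0.234), nor Pgf (-0.59, adjusted p = 0.597).

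Among 11 Notch and arterial genes, 3 were higher and 4 lower in transplants, beside 34.8% of all genes tested. Dll1 (1.03), Gja4 (0.60) and Gja5 (0.80) were higher. Notch4 (-0.49), Heyl (-0.83), Jag1 (-0.64) and Efnb2 (-0.40) were lower. After radiation Heyl (-1.27) and Efnb2 (-0.62) fell in primary tumors, and Dll1 (1.07) and Gja4 (1.13) rose in transplants. For radiation the share of all genes tested that were called was 31.0% in primary tumors and 7.23% in transplants. Dll4, the Notch ligand of sprouting tips, was not called in either model (-0.35 and -0.01). Of 10 genes of endoglin signalling, Acvrl1 (ALK1, the receptor that works with endoglin) rose after radiation in primary tumors (0.46, adjusted p = 0.0351) and in transplants (0.82, adjusted p = 0.0257). In the latter all 8 irradiated tumors (46.6 to 63.5 CPM) lay above all 8 unirradiated ones (19.1 to 43.7 CPM). Tgfbr1 rose in transplants (0.77), and Smad6 rose (0.74) and Tgfbr2 fell (-0.38) in primary tumors. Between models 4 of the 10 were lower in transplants (Tgfbr2, Tgfbr3, Id1 and Id3) and 1 higher (Smad6), beside the same 34.8%.

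Of 7 genes of tip cells and tumor endothelium, 3 were lower in transplants and 2 higher, beside 34.8% of all genes tested. Esm1, secreted by sprouting endothelium, had a log2 fold change of -2.34 ± 0.40 (SE, adjusted p = 1.02e-05 by edgeR), with medians of 9.39 CPM in transplants and 43.1 CPM in primary tumors. Apln (-1.50) and Nid2 (-0.54) were lower, and Plvap, the diaphragm protein of leaky vessels (0.42), and Cxcr4 (0.43) were higher. After radiation Nid2 fell in primary tumors (-0.60) and Pdgfb rose in transplants (0.68). For radiation 31.0% of all genes tested were called in primary tumors and 7.23% in transplants. Of 6 tested adhesion molecules for leukocytes, Icam1 rose in primary tumors (1.33) and in transplants (1.28). Sele fell (-1.09) and Madcam1 rose (1.42) in primary tumors, and Selp was called in neither (0.96 and 0.59). Between models Icam1 was higher (0.62) and Madcam1 lower (-1.71) in transplants. Of 9 junction partners, 5 were higher in transplants (Ocln by 1.12, the largest) and 2 lower, beside the same 34.8%. After radiation of primary tumors 2 fell (Ctnnb1 by -0.39 and Jam3 by -0.33), beside 31.0% of all genes tested.

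Averaged over treatments, lymphatic endothelial genes were lower in transplants in 6 of 6 cases, beside 34.8% of all genes tested. Their median log2 fold change was -2.47. The summed level of the 6 ran from 11.8 to 66.7 CPM in transplants and from 42.1 to 725 CPM in primary tumors. Reln (-3.04), Lyve1 (-2.53) and Ccl21a (-2.49) had the largest differences, Prox1, the regulator of lymphatic identity, had -1.61 and Flt4 (VEGFR3, the receptor of Vegfc) -1.40. Within each single treatment all 6 log2 fold changes between models were negative, but Prox1 was not called in any. After the combination only Reln was called (-3.45, adjusted p = 0.0156 by edgeR), and Prox1 had -0.28 (adjusted p = 0.895). None of the 6 was called after radiation in either model. The share of all genes tested that were called there was 31.0% in primary tumors and 7.23% in transplants.

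The 2 libraries of line 402230 were compared with the tumors after scaling all 50 libraries together. Each is a single library, so there is no test, and intervals cover counting error only. In the library labelled parental tumor, 9 of the 10 genes were below all 48 tumors. Pecam1 was at 0.114 CPM (5 counts, exact 95% Poisson interval 0.0369 to 0.265), against 44.5 to 315 CPM in the primary tumors. Cdh5 was at 0.227 CPM, Kdr at 0.182, Vwf at 0.159 and Tie1 at 0.818 CPM. Tek had 3 counts and Cldn5 1 count. Flt1 (5.27 CPM) and Eng (32.01 CPM) were less far from the tumors, whose lowest values were 16.4 and 36.7 CPM. Cd34 was at 583 CPM (25645 counts), within the range of the primary tumors (147 to 1138 CPM).

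In the library labelled cell line, 9 of the 10 genes were within the range of the 48 tumors. Pecam1 was at 104.01 CPM, Cdh5 at 111.5 CPM, Kdr at 34.4 CPM, Tie1 at 48.3 CPM and Cd34 at 551 CPM, and Flt1, at 86.0 CPM, was above the highest tumor (75.3 CPM). The Cd34 level of this library was 0.944 times that of the library labelled parental tumor, while its Pecam1 level was 915 times as high. The other lists showed the same contrast. The 20 pan-endothelial genes summed to 13.5 CPM in the library labelled parental tumor and 559.9 CPM in that labelled cell line, the 6 leukocyte genes to 2.91 and 459 CPM and the 5 red blood cell genes to 0.0909 and 187 CPM. Both levels go against what the labels name, and their source was not tested.

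**Figure D5:**
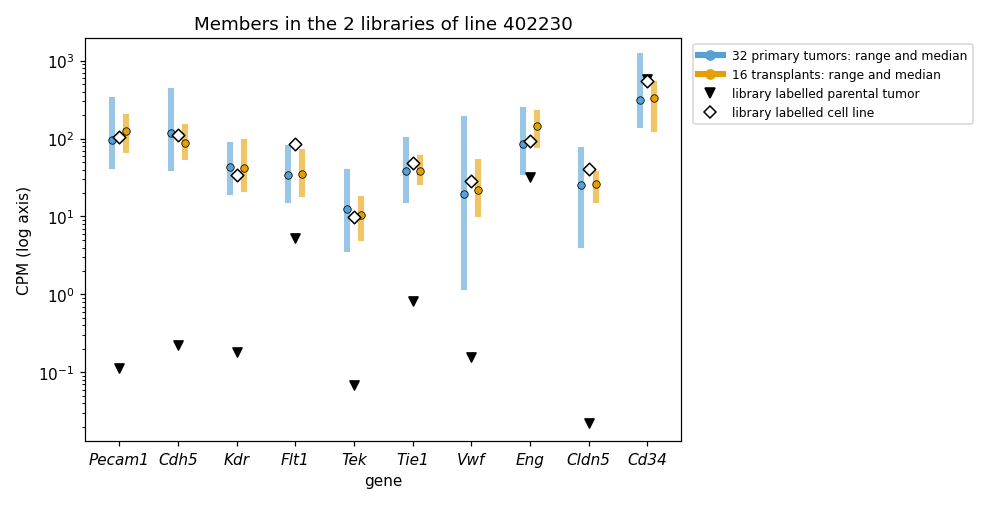
Levels of the 10 genes (x axis) in CPM on a log axis (y axis), with bars for the range and dots for the median of 32 primary tumors and 16 transplants, a triangle for the library labelled parental tumor and a diamond for the library labelled cell line. The triangles lie below the bars except for Cd34, and the diamonds lie within or close to them.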

How the data were processed

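RNA was sequenced from 50 mouse sarcoma libraries. The labels and methods state that the authors used Trimmomatic 0.36 for trimming, STAR for alignment to mm10 and HTSeq for counts per GENCODE gene. The deposited values were raw read counts, with no normalization and no pooling. Identifiers were matched to symbols of GENCODE M21 (37408 of 37469). Replicates of a group were compared in 136 pairs, and no pair was as alike as sampling noise would give (lowest chi-square per degree of freedom 93.6).

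Groups came from the labels, and replicates were numbered by accession. The test was edgeR 4.0.16 under R 4.3.3: filterByExpr by group, TMM scaling, 1 robust quasi-likelihood fit over the 48 tumors with a mean per group, 17 contrasts, two-sided p-values adjusted by the Benjamini-Hochberg method over 19327 genes, and a threshold of 0.05. Fold changes are transplant over primary, 20 Gy over 0 Gy, anti-PD-1 over isotype, or the combination over no treatment. Levels are TMM-scaled CPM, or log2 CPM with a prior count of 2. Alternatives were RLE factors, library totals, no filter, DESeq2, limma voom, a fit on the compared groups only, a muscle covariate and leaving out each transplant. The fit was tested on simulated data.

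The 10 genes and 15 lists of 125 genes (pan-endothelial, VEGF and angiopoietin, Notch and arterial, endoglin signalling, tip cell, leukocyte adhesion, junction, mural, lymphatic, platelet, leukocyte, fibroblast, muscle, adipose, red blood cell) were chosen with earlier results of these data known. The text gives the 10 genes by value or as a range in the averaged comparisons of model, radiation and anti-PD-1, and elsewhere mainly by counts of calls, 22 fixed genes, up to 3 further called genes per list by the size of their change in averaged comparisons, any genes of a count of 5 or fewer, and the 10 genes most correlated with the mean of the 10.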

Additional observations from a re-analysis of the deposited data

Results flagged for a closer look

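In 5 of 80 combinations of a gene and a group, 1 tumor lay apart from the rest of its group by Dixon's 95% critical value, where chance flags about 1 in 20 groups. Cdh5 was at 402 CPM in replicate 7 of the primary tumors given 20 Gy alone, where the other 7 ran from 40.7 to 103.4 CPM. Replicate 1 of the transplants given 20 Gy alone was low in Cdh5 (60.4 CPM, others 122.6 to 136.1 CPM) and in Tie1 (28.9 CPM, others 50.3 to 55.9 CPM). Vwf was at 41.0 CPM in replicate 2 of the transplants given anti-PD-1 alone (others 18.6 to 21.2 CPM), and Cd34 at 519.9 CPM in replicate 4 of the same group (others 329 to 352 CPM).

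The 2 libraries of line 402230 entered no comparison and held counts above the 3 that a count of 0 allows. In the library labelled parental tumor this held for Pecam1 (0.114 CPM), Cdh5 (0.227 CPM), Kdr (0.182 CPM), Flt1 (5.27 CPM), Tie1 (0.818 CPM), Vwf (0.159 CPM), Eng (32.01 CPM) and Cd34 (583 CPM). In the library labelled cell line it held for all 10 genes: Pecam1 (104.01 CPM), Cdh5 (111.5 CPM), Kdr (34.4 CPM), Flt1 (86.0 CPM), Tek (9.96 CPM), Tie1 (48.3 CPM), Vwf (28.6 CPM), Eng (92.1 CPM), Cldn5 (41.1 CPM) and Cd34 (551 CPM).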

How the results depend on the processing

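Of the 17 comparisons, 12 kept the number of called endothelial genes under every alternative run. Averaged between models the number was 2, and it was 1 with RLE factors (Cdh5), library totals only (Eng), limma voom (Eng) and the muscle covariate (Tek, in place of both genes), 0 with no filter beyond 1 count, and 0 to 1 when 1 transplant was left out. A fit on the compared groups alone called 1 gene between models after 20 Gy alone (Eng) and 1 after radiation of transplants under isotype (Kdr), where 0 were called otherwise. After radiation of primary tumors the number rose from 1 to 2 with the muscle covariate under isotype (Tek) and with DESeq2 under anti-PD-1 (Flt1). The causes were not tested. Of 2222 values for other listed genes, 2045 kept their direction and side of the threshold and 173 lost their call. With the muscle covariate Ckm (-0.011), Atp2a1 (-0.041) and Pvalb (-0.51) of the muscle list itself turned direction after radiation of primary tumors, as did Pvalb (-0.031) with limma voom. A fit on the compared groups alone equals the fit reported where all 8 groups enter. No paired analysis was possible because the labels give the tumors no shared replicate numbers.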

Other observations

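Genes of other components of the vessel wall and stroma also differed between the models, where 34.8% of all genes tested were called. Of 9 mural genes, 3 were lower in transplants, Cspg4 (log2 fold change -2.06), Pdgfrb (-1.07) and Cox4i2 (-1.07), while Rgs5, a pericyte gene, was not called (-0.01). After radiation of primary tumors Myh11 rose (1.49) and Cspg4 fell (-1.15). The share of all genes tested that were called after radiation was 31.0% in primary tumors and 7.23% in transplants. Of 6 fibroblast genes, 5 were lower in transplants (Lum by -2.36, the largest) and Pi16 was higher (1.35). Of 4 tested platelet genes, Pf4 (-1.65) and Itga2b (-0.60) were lower in transplants, and after radiation of transplants Ppbp (-4.01) and Gp1ba (-2.54) fell, as did Gp1ba after radiation of primary tumors (-1.43, adjusted p = 0.0383). Of 4 adipose genes 1 was higher in transplants (Cidec, 1.71), and of 5 red blood cell genes and 9 muscle genes 0 were called between models by edgeR.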
